A study of Mus musculus with 6 samples.

Results

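The proteasome genes described here are the rows of the deposited mouse table whose symbol begins with Psm, then a letter from a to g, then a number, leaving out the interferon-inducible genes Psmb8, Psmb9, Psmb10 and Psme1. This rule took 46 of 16516 genes, and all 46 passed the filter on low counts. By role they were 15 genes of the core particle (Psma1 to Psma8 and Psmb1 to Psmb7), 17 of the regulatory particle (Psmc1 to Psmc6, and Psmd1 to Psmd4, Psmd6 to Psmd8 and Psmd11 to Psmd14), 5 of other activators or an inhibitor (Psme2, Psme2b, Psme3, Psme4 and Psmf1) and 7 assembly factors (Psmg1 to Psmg4, Psmd5, Psmd9 and Psmd10). The other 2 genes matched the rule by name alone and are not proteasome subunits: Psmc3ip, which acts in meiotic recombination, and Psme3ip1, whose product binds the activator made by Psme3.

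The proteasome degrades proteins marked with ubiquitin. Its core particle is a barrel of stacked rings, in which alpha subunits form the gates and beta subunits line the chamber, and the beta subunits Psmb5, Psmb6 and Psmb7 carry the active sites. The regulatory particle caps the barrel, binds ubiquitin, removes it, and unfolds and feeds in the substrate with a ring of ATPases. Interferon induces replacement catalytic subunits and a different activator, and myeloid cells such as microglia are known to express these forms.

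RNA-seq was performed on CD11b+ cells from the cortex of male C57BL6/J mice aged 8 to 10 weeks. The 4LPS mice had received lipopolysaccharide (LPS, from Escherichia coli) intraperitoneally at 500 µg/kg once a day for 4 days, and the NS mice had received normal saline on the same schedule. Cells were taken on D7, counted from the first injection, and each group had 3 samples of cells pooled from 2 mice each. CD11b is carried by microglia, other myeloid cells and mature natural killer (NK) cells, so the beads did not select microglia alone.

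The total expected count was 15164123 to 15462396 in 4LPS samples and 15158342 to 15746606 in NS samples, and levels below are CPM, counts scaled to the same library total after TMM normalization. Microglial markers were abundant in every sample, with 12 genes summing to 46960 to 47630 CPM in 4LPS and 47810 to 50390 CPM in NS. Of these 12 genes 2 were higher and 1 was lower, and the sums did not overlap. Of all genes tested, 9.95% were called higher and 6.43% lower, the background for each marker list here. The 12 NK cell markers summed to 141 to 162 CPM in 4LPS and 9.38 to 15.6 CPM in NS, and 11 of them were higher in 4LPS by edgeR. Markers of the choroid plexus varied from 1.84 to 2210 CPM among 4LPS samples and from 651 to 6560 CPM among NS samples, with 0 of 6 passing. The 7 endothelial markers summed to 165 to 355 CPM in 4LPS and 323 to 656 CPM in NS, with 2 lower. The 7 astrocyte markers summed to 197 to 220 CPM in 4LPS and 259 to 274 CPM in NS, with 3 lower and no overlap of the sums. The T cell markers summed to 19.5 to 22.3 CPM in 4LPS and 5.72 to 7.44 CPM in NS, with 4 of 5 tested higher. The 8 neutrophil markers summed to 416 to 989 CPM in 4LPS and 161 to 632 CPM in NS, with 0 passing. No marker of these lists was at 0 in all samples. In such bulk samples, fewer cells of a type and less RNA per cell cannot be told apart.

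Did repeated LPS alter the mRNA of the constitutive proteasome in these cells at D7? Of the 46 genes, 0 were higher and 4 were lower in 4LPS at an adjusted p under 0.05 (edgeR's quasi-likelihood test, Benjamini-Hochberg over 13151 genes). The 4 were Psmb2 of the core and Psmd1, Psmd3 and Psmd4 of the regulatory particle, with log2 fold changes of -0.24 to -0.19. They were 8.7% of the members, against a background of 6.43% of all genes tested, so the share called lower was close to that of all genes. The 0 members called higher stand against 9.95% of all genes tested. At an unadjusted p under 0.05, 13 members were lower (28.3%, against 16.1% of all genes) and 0 were higher (against 17.6%). DESeq2 called 3 lower (Psmd1, Psmd3 and Psmd4, 6.52%, against 7.54% of all genes) and 0 higher (against 10.9%).

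**Figure D1:**
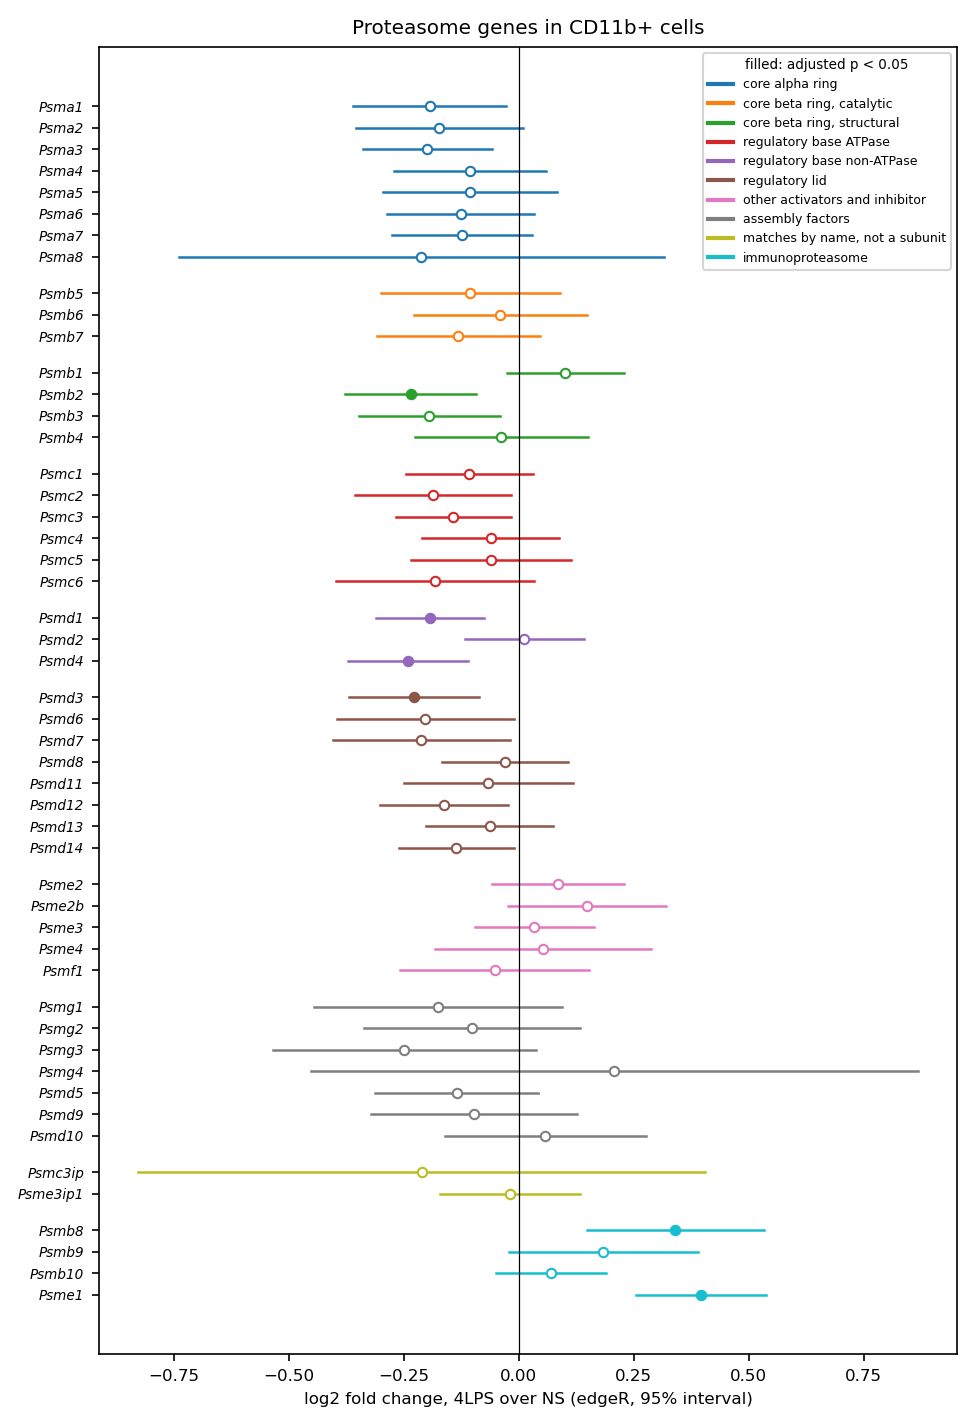
Log2 fold change of each proteasome gene (horizontal axis, 4LPS over NS) with its 95% interval from edgeR, by role, from n = 3 samples per group, with filled points for an adjusted p under 0.05. Of the 46 genes taken by the rule, 38 lie left of 0 and 4 are filled. All 4 interferon-inducible genes left out by the rule, at the bottom, lie right of 0, as does Psme2 of the same cap as Psme1 among the 46.

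Most members had a small log2 fold change below 0. The log2 fold change was below 0 for 38 of 46 (82.6%), against 52.7% of all genes tested, with a median of -0.12 over the members and -0.02 over all genes. The member values ran from -0.25 to 0.21, while those of all genes ran from -2.84 to 13.8. In the core 14 of 15 genes were below 0 (median -0.13), and in the regulatory particle 16 of 17 (median -0.14). Of the assembly factors 5 of 7 were below 0 (median -0.10), but of the other activators and the inhibitor only Psmf1 was (1 of 5, median 0.05). Members share libraries and are not replicates, so no test was made over the lists.

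Without overlap between the groups, 16 members (34.8%) were lower in every 4LPS sample than in any NS sample, against 17.5% of all genes tested, and 1 member, Psmb1, was higher in every 4LPS sample, against 19.9%. The 16 were Psma1, Psma3, Psma7, Psmb2 and Psmb3 in the core, Psmc1, Psmc2, Psmc3, Psmd1, Psmd3, Psmd4, Psmd7, Psmd12 and Psmd14 in the regulatory particle, and the assembly factors Psmg1 and Psmg3. The size of any difference was bounded closely. For 43 of 46 members the 95% interval lay within 1.5-fold in either direction, against 62.3% of all genes, and for 29 of 46 it lay within 1.25-fold, against 34.4% of all genes. The width of an interval depends on counts, and 38 members had at least 20 CPM. Members and all genes were not matched for level. The intervals of 44 members left out a rise of 1.25-fold, as did those of 8485 of the 13151 genes tested, and those that did not were Psmg4 and Psmc3ip, both near 1 to 4 CPM.

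**Figure D2:**
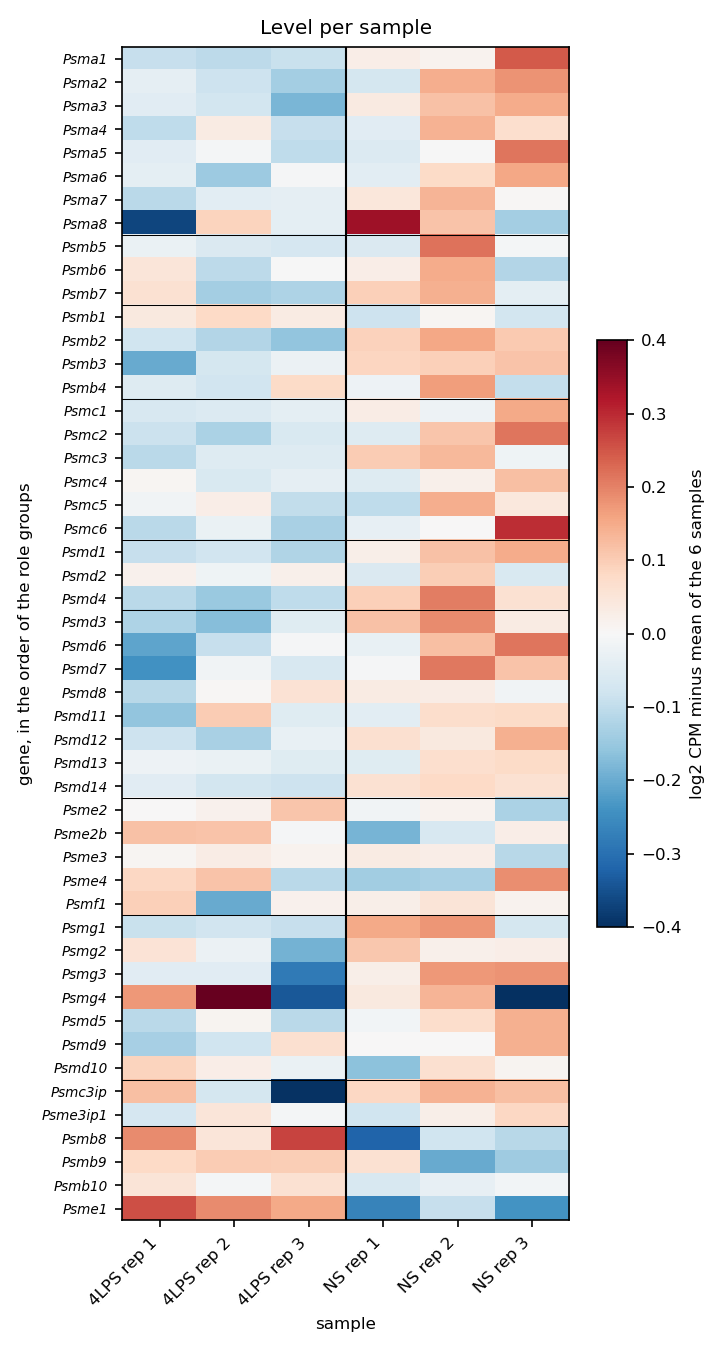
Log2 CPM of each proteasome gene (rows) in each sample (columns) minus the mean of that gene over the 6 samples, with horizontal lines between the role groups and colours clipped at the ends of the scale. Most rows of the core and the regulatory particle are blue in the 3 4LPS samples and red in NS replicates 2 and 3, NS replicate 1 is nearer to the mean, and Psmb8 and Psme1 in the lowest rows show the opposite colours.

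Among the alpha subunits, which form the outer rings of the barrel, 0 of 8 passed the test and all 8 had a log2 fold change below 0. Of all genes tested, 52.7% were below 0. Psma3 had 60.0, 58.8 and 54.5 CPM in 4LPS samples, against 63.4, 67.0 and 68.5 CPM in NS samples, a log2 fold change of -0.20 ± 0.06 (SE) with an adjusted p of 0.0616 by edgeR. Psma1 had 61.8, 61.2 and 62.0 CPM in 4LPS, against 67.1, 66.5 and 78.0 CPM in NS, where replicate 3 was the highest (adjusted p = 0.104 by edgeR). The groups did not overlap for these 2 genes, although neither passed. The smallest difference of the ring was that of Psma4, with 42.2, 46.4 and 42.5 CPM in 4LPS, against 43.9, 49.9 and 47.4 CPM in NS (log2 fold change -0.11, adjusted p = 0.327 by edgeR), and its groups overlapped. Psma8, the testis form of an alpha subunit, was near the lower end of detection at 2.43, 3.33 and 3.05 CPM in 4LPS and 3.96, 3.4 and 2.85 CPM in NS, and its log2 fold change of -0.21 had a 95% interval of -0.74 to 0.32.

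The 3 catalytic subunits did not pass. Psmb5, the chymotrypsin-like subunit, had 36.0, 35.1 and 34.9 CPM in 4LPS samples, against 35.1, 42.6 and 36.4 CPM in NS samples. Only NS replicate 2 stood above the 4LPS range by more than 1 CPM, and the log2 fold change of -0.11 had a 95% interval of -0.30 to 0.09 (adjusted p = 0.409 by edgeR). Psmb6, the caspase-like subunit, had 46.9, 42.2 and 45.4 CPM in 4LPS, against 46.2, 50.2 and 41.8 CPM in NS. The 4LPS values lay inside the NS range (log2 fold change -0.04, interval -0.23 to 0.15, adjusted p = 0.764 by edgeR). Psmb7, the trypsin-like subunit, had 60.6, 52.9 and 53.4 CPM in 4LPS, against 62.1, 64.1 and 56.6 CPM in NS. Its log2 fold change was -0.13 (interval -0.31 to 0.05, adjusted p = 0.262 by edgeR), with 4LPS replicate 1 inside the NS range. Exons of Psmb7 share 2817 of 6025 bases with exons of Nek6 in the annotation, and whether the counting used strand is not stated, so its count is less certain than those of the other 2.

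The 4 other beta subunits complete the inner rings. Psmb2 had 32.8, 31.9 and 31.1 CPM in 4LPS samples, against 36.9, 38.5 and 37.2 CPM in NS samples. Every 4LPS sample was below every NS sample, and Psmb2 fell to 0.85 of its NS level (log2 fold change -0.24 ± 0.06 SE, adjusted p = 0.038 by edgeR). DESeq2 did not make this call (adjusted p = 0.0986). The call was also lost with the replicate block, without a filter on counts and without any single sample. Psmb3 had 34.4, 37.7 and 38.9 CPM in 4LPS, against 41.9, 42.2 and 42.8 CPM in NS, also without overlap, but with an adjusted p of 0.0824 by edgeR (log2 fold change -0.19). Psmb4 differed little, at a log2 fold change of -0.04 with an interval of -0.23 to 0.15. Psmb1 was the core gene above 0, with 52.6, 54.2 and 52.5 CPM in 4LPS, against 48.3, 51.5 and 48.7 CPM in NS. All 3 of its 4LPS values were above the NS values, by a log2 fold change of 0.10 that did not pass (adjusted p = 0.231 by edgeR).

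In the base of the regulatory particle, the 6 ATPases Psmc1 to Psmc6 form the ring that unfolds substrates. None of the 6 passed, and all 6 were below 0 (log2 fold changes -0.19 to -0.06), against 52.7% of all genes tested. At an unadjusted p under 0.05 by edgeR, 2 of the 6 were lower, against 16.1% of all genes. Psmc2 had 63.5, 61.6 and 64.5 CPM in 4LPS samples, against 65.0, 72.7 and 78.0 CPM in NS samples, a log2 fold change of -0.19 (adjusted p = 0.121 by edgeR). Psmc3, the most highly expressed subunit of the particle per length, had 107, 111 and 111 CPM in 4LPS, against 124, 126 and 114 CPM in NS (log2 fold change -0.14, adjusted p = 0.109 by edgeR). The groups of both genes were separate, by less than 1 CPM for Psmc2. Psmc5 was at the other end, with 55.0, 56.5 and 51.9 CPM in 4LPS, against 51.8, 61.5 and 57.2 CPM in NS (log2 fold change -0.06), and 1269 of its 3211 exonic bases are shared with Smarcd2.

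Of the 3 non-ATPase genes of the base 2 fell, where 6.43% of all genes tested were called lower, and both calls were lost with the replicate block and without any single 4LPS sample. Psmd4, a receptor that binds ubiquitin chains, had 64.5, 62.7 and 64.8 CPM in 4LPS samples, against 74.3, 80.0 and 72.5 CPM in NS samples. It fell by 15.4% with no overlap between the groups (log2 fold change -0.24 ± 0.06 SE, adjusted p = 0.026 by edgeR). Psmd1, a scaffold of the base, had 99.4, 101 and 97.6 CPM in 4LPS, against 108, 115 and 118 CPM in NS. It fell by 12.5%, again with no overlap (log2 fold change -0.19 ± 0.05 SE, adjusted p = 0.0386 by edgeR), and 252 of its 10693 exonic bases are shared with Htr2b. Psmd2, the other scaffold, which also docks proteins that deliver ubiquitinated substrates, had 148, 144 and 148 CPM in 4LPS, against 140, 156 and 140 CPM in NS. Its 4LPS values lay inside the NS range, and its log2 fold change of 0.01 had an interval of -0.12 to 0.14.

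The lid holds the deubiquitinating subunit and its scaffold, and 1 of its 8 genes fell, where 6.43% of all genes tested were called lower. Psmd3, a scaffold subunit, had 73.6, 71.2 and 77.6 CPM in 4LPS samples, against 87.0, 91.5 and 82.0 CPM in NS samples. The groups did not overlap, and Psmd3 fell by 14.6% (log2 fold change -0.23 ± 0.06 SE, adjusted p = 0.041 by edgeR). This call was lost with the replicate block and without any single 4LPS sample. Psmd14, the deubiquitinase that strips ubiquitin from substrates, had 39.1, 38.3 and 38.0 CPM in 4LPS, against 42.0, 42.6 and 42.1 CPM in NS. Values within each group of Psmd14 were nearly equal, and the groups did not overlap, but the log2 fold change of -0.14 did not pass (adjusted p = 0.126 by edgeR). Psmd8 was the lid gene nearest to 0, at -0.03, with overlapping groups of 64.4, 69.8 and 72.4 CPM in 4LPS, against 71.1, 71.0 and 68.9 CPM in NS. Of the lid genes, 5 of 8 had an unadjusted p under 0.05 (Psmd3, Psmd6, Psmd7, Psmd12 and Psmd14), against 16.1% of all genes lower at that threshold, and all 8 were below 0, against 52.7% of all genes.

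In the GRCm39 assembly with GENCODE annotation, Psmb2 lies at chr4:126571423-126606667 on the plus strand with 6 exons in its canonical transcript. Psmd1 lies at chr1:85992097-86070048, plus strand, with 25 exons. Psmd3 lies at chr11:98573362-98586812, plus strand, with 12 exons, and Psmd4 at chr3:94937765-94949925, minus strand, with 10 exons. The 46 members are spread over the genome, and these 4 are on 4 chromosomes.

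The promoters of 4 members are shown because their genes are those compared above and because they hold, or lack, short motifs of factors known to act on proteasome or interferon-inducible genes. Each is the 250 bases before the start of a transcript in RefSeq (GRCm38.p6, an earlier assembly than that of the coordinates above), printed 5′ to 3′ on the strand of the gene. Capitals mark TGACNNNGC (the antioxidant response element), CCAAT, or an interferon response element (GAAA, any 2 bases, then GAAA), searched on both strands. Psmb5 lies at chr14:54617996-54618245 on the minus strand, Psmb6 at chr11:70525107-70525356 on the plus strand, Psmd4 at chr3:95042615-95042864 on the minus strand and Psmd1 at chr1:86064369-86064618 on the plus strand.
Psmb5: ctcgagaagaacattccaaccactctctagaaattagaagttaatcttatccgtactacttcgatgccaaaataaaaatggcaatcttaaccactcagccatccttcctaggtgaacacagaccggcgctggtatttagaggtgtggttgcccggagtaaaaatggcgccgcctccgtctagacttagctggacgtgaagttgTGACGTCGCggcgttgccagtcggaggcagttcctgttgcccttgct
Psmb6: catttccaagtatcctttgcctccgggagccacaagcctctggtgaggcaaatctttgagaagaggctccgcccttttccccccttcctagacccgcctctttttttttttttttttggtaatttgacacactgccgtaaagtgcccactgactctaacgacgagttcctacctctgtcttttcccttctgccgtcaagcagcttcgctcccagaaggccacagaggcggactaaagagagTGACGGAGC
Psmd4: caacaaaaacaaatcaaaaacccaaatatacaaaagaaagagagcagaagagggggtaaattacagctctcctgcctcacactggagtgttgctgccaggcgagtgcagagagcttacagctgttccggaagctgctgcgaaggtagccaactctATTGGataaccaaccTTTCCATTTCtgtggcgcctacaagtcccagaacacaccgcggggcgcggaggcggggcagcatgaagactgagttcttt
Psmd1: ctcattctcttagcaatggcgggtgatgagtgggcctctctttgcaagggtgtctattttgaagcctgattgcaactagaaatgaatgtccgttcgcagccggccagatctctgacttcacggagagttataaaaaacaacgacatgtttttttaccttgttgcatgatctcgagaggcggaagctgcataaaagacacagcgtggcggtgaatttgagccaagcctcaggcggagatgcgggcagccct

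The antioxidant response element begins 47 bases before the start in Psmb5 and 9 bases before it in Psmb6. Psmd4 holds CCAAT on the reverse strand and, downstream of it, the interferon response element on the reverse strand, while Psmd1 holds none of the 3 motifs. RefSeq promoters matched 38 member genes with 42 windows. TGACNNNGC was in 5 of the 42 windows (11.9%), against 10.2% of 32851 windows of all genes, and CCAAT was in 14 (33.3%), against 33.8%. The interferon response element was in 3 of 42 (7.14%), against 2.98% of all windows, in Psmb3, Psmd4 and Psmd9. Of the 4 genes that fell, Psmb2 and Psmd3 had no promoter entry. A match to letters is not a bound site, and no binding was measured.

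The summed core and the summed regulatory particle were both lower in 4LPS samples, by similar ratios. The 15 core genes summed to 669, 659 and 662 CPM in 4LPS samples, against 692, 744 and 725 CPM in NS samples, a ratio of means of 0.921. For the 17 regulatory particle genes the sums were 1090, 1111 and 1117 CPM in 4LPS, against 1164, 1240 and 1222 CPM in NS, a ratio of 0.915. All 3 4LPS sums were below all 3 NS sums for both particles. The regulatory particle was 1.63, 1.69 and 1.69 times the core in 4LPS and 1.68, 1.67 and 1.69 times the core in NS. This ratio is formed within a sample and needs no scaling between samples, and its groups overlapped. Whether the particles differed in their change was not tested.

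Within the core, the alpha ring without Psma8 summed to 343, 343 and 337 CPM in 4LPS samples, against 356, 381 and 400 CPM in NS samples. The beta ring summed to 324, 313 and 322 CPM in 4LPS, against 332, 359 and 322 CPM in NS, so the lowest NS value lay inside the 4LPS range. The separation between groups was thus clearer in the alpha ring, although NS replicate 3 was highest for alpha subunits and lowest for beta subunits, and the difference between the rings was not tested.

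All 46 genes together summed to 2213, 2227 and 2218 CPM in 4LPS samples, against 2289, 2429 and 2404 CPM in NS samples, a ratio of means of 0.935. As a plain share of all counts, with no TMM scaling, they took 0.216%, 0.216% and 0.212% in 4LPS, against 0.24%, 0.25% and 0.246% in NS. The choroid plexus markers summed to 2210, 1.84 and 530 CPM in the same order of 4LPS samples, against 6560, 5702 and 651 CPM in NS samples. The NS sample with the most of them, replicate 1, had the lowest NS member sum, while replicate 2, at 5702 CPM, had the highest. Among 4LPS samples the markers ran from 1.84 to 2210 CPM, and the member sums from 2213 to 2227 CPM. The summed NK cell, T cell and B cell markers were higher in all 3 4LPS samples, where the member sums were lower. The summed microglial, astrocyte and neuron markers were lower in all 3. The part of any of these cells in the member sums was not tested.

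Of the other activators and the inhibitor, 0 of 5 passed, and whether they differed from the subunits was not tested. Psme2, the beta chain of the interferon-inducible PA28 cap, had 60.5, 61.2 and 65.4 CPM in 4LPS samples, against 59.9, 61.1 and 55.4 CPM in NS samples (log2 fold change 0.09, adjusted p = 0.366 by edgeR). Its near copy Psme2b had 45.1, 45.1 and 41.5 CPM in 4LPS, against 36.6, 39.8 and 42.4 CPM in NS (log2 fold change 0.15, adjusted p = 0.20 by edgeR). Their transcripts are 99.4% identical over 792 aligned bases, so reads may be shared between them and each value alone is uncertain. The 2 together came to 106, 106 and 107 CPM in 4LPS, against 96.5, 101 and 97.8 CPM in NS, with no overlap.

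Psme3, the nuclear activator, had 79.5, 80.6 and 79.7 CPM in 4LPS samples, against 80.7, 80.4 and 73.1 CPM in NS samples (log2 fold change 0.03, interval -0.10 to 0.16). Psme4, the large single-chain activator, had 98.2, 100 and 86.0 CPM in 4LPS, against 84.2, 84.7 and 105 CPM in NS, where it varied most (log2 fold change 0.05, interval -0.18 to 0.29). The inhibitor gene Psmf1 had 31.4, 25.6 and 29.8 CPM in 4LPS, against 29.9, 30.5 and 29.8 CPM in NS (log2 fold change -0.05), with 4LPS replicate 2 the lowest. None of these 3 genes passed, and the groups of each overlapped. Summed over the 5 genes of this list and divided by the core sum of the same sample, the activators and inhibitor came to 0.47, 0.475 and 0.457 in 4LPS, against 0.421, 0.399 and 0.422 in NS. Every 4LPS ratio was above every NS ratio.

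Assembly factors build the rings and the base and are not part of the finished particle. Their mean levels were below those of every subunit except Psma8 in FPKM, and 0 of 7 passed. Psmg3, a chaperone of the alpha ring, had the lowest log2 fold change of all members, -0.25 ± 0.12 SE, with 8.63, 8.63 and 7.32 CPM in 4LPS samples, against 9.06, 10.1 and 10.1 CPM in NS samples (adjusted p = 0.197 by edgeR). Its partner Psmg4 had the highest, 0.21, but at 2.90, 3.54 and 2.03 CPM in 4LPS, against 2.64, 2.83 and 1.86 CPM in NS, its interval ran from -0.45 to 0.87. The extremes of the member range were therefore thinly counted genes. Psmg1 and Psmg2, the other pair of alpha ring chaperones, had log2 fold changes of -0.18 and -0.10, and the base chaperones Psmd5, Psmd9 and Psmd10 had -0.14, -0.10 and 0.06. Summed and divided by the core of the same sample, assembly factors came to 0.141, 0.146 and 0.137 in 4LPS and 0.14, 0.136 and 0.14 in NS, with overlap.

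The 2 genes matched by name did not pass either. Psmc3ip had 1.55, 1.36 and 1.08 CPM in 4LPS samples, against 1.51, 1.57 and 1.55 CPM in NS samples (log2 fold change -0.21, interval -0.83 to 0.41). Psme3ip1 had a log2 fold change of -0.02 and overlapping groups.

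Replicates agreed closely. Over the 38 members with at least 20 CPM, the median coefficient of variation was 3.88% in 4LPS samples, where counting error alone gives 3.69%, and 5.83% in NS samples, where it gives 3.39%. The highest was 10.4% in 4LPS, for Psmf1, and 13.2% in NS, for Psme4. Within NS, replicate 1 was the lowest of its group for 23 of the 38 genes and the highest for 2, with a median log2 deviation of -0.10 from the other NS samples. In 4LPS each replicate was the lowest for 12 or 13 genes. Without NS replicate 1 the subunits had a median log2 fold change of -0.16, and 31 of 32 were below 0.

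Levels between genes were compared in FPKM, which divides by gene length. Psme2 had the highest mean, 98.8 ± 5.05 FPKM in 4LPS and 98.7 ± 4.77 FPKM in NS (SD, n = 3 each), and Psmb4 followed at 90.1 ± 6.0 FPKM in 4LPS and 98.1 ± 8.47 FPKM in NS. In NS these 2 did not differ beyond their spread from Psmb3 (97.2 ± 1.62 FPKM) and Psma6 (96.3 ± 6.07 FPKM). The place of Psme2 is uncertain, since reads may be shared between it and Psme2b. The lowest was Psmc3ip, at 2.2, 1.89 and 1.54 FPKM in 4LPS and 2.28, 2.33 and 2.32 FPKM in NS. Psma8, at 1.71 to 2.34 FPKM in 4LPS and 2.10 to 2.98 FPKM in NS, was far below the other alpha subunits.

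The 14 core subunits that assemble in equal number did not have equal mRNA levels in FPKM. The highest was 3.13 to 3.86 times the lowest in 4LPS samples and 3.05 to 3.27 times in NS samples. Psma3 was the lowest in all 6 samples, at 25.1 to 28.0 FPKM in 4LPS and 31.7 to 33.6 FPKM in NS. The gene length behind its FPKM was 2093 bases, against 665 for Psma2 to 974 for Psma1 among Psma1, Psma2 and Psma4 to Psma7. In CPM its means were 57.8 in 4LPS and 66.3 in NS, near those of Psma6 (61.1 and 66.8). The place of Psma3 and the width of the span therefore rest on that length. Psmb4 was the highest in all 3 4LPS samples, while in NS the highest was Psmb3, Psmb4 or Psma6. The 17 regulatory particle genes spanned 2.75 to 2.94 times in 4LPS and 2.56 to 3.02 times in NS, with Psmc3 the highest in every sample, at 77.1 to 79.4 FPKM in 4LPS and 86.6 to 95.5 FPKM in NS. The order of genes by mean level was nearly the same in 4LPS and NS (Spearman's rho 0.947 over the 14 core genes and 0.939 over the 17 regulatory particle genes, across genes, which share gene length and libraries and are not replicates).

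**Figure D3:**
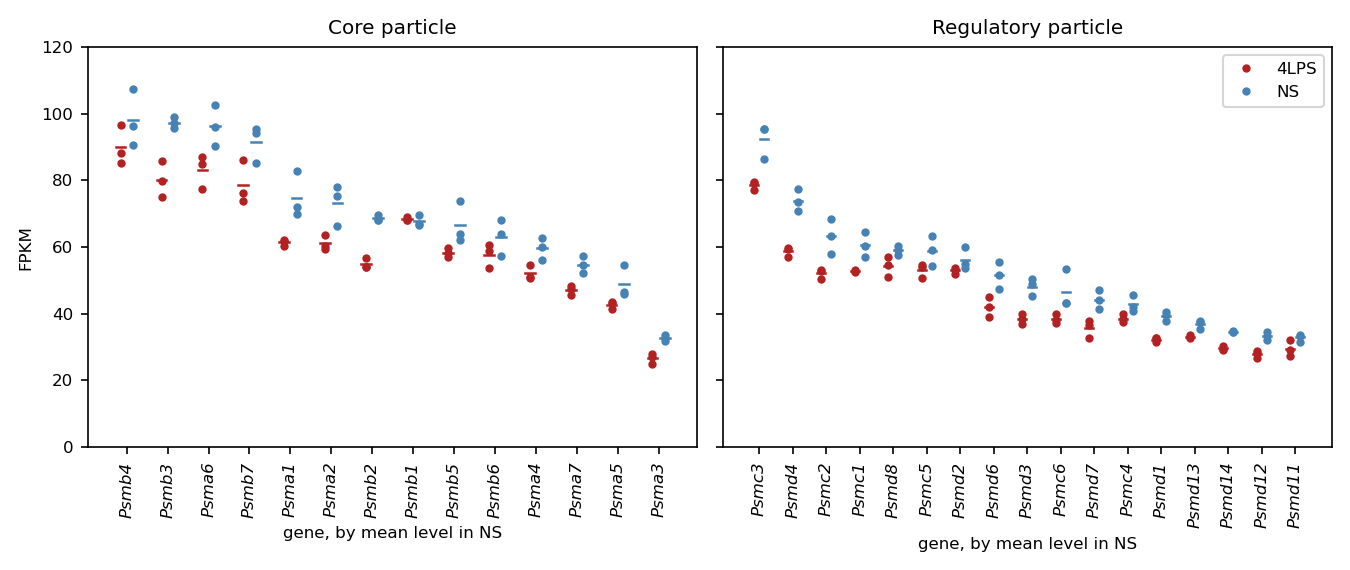
FPKM (vertical axis) of the 14 core genes and the 17 regulatory particle genes (horizontal axis, ordered by mean level in NS) in each sample, with 4LPS in red left of NS in blue and a bar at the mean of n = 3. Psma3 is the lowest core gene and Psmc3 the highest regulatory particle gene in both groups, and FPKM carries no composition factor, so the gap between the groups is wider here than in TMM-scaled CPM.

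The 4 genes that the rule leaves out are induced by interferon, and in this comparison they had log2 fold changes above 0. Psme1, the alpha chain of the PA28 cap, had 130, 124 and 120 CPM in 4LPS samples, against 90.1, 102 and 91.9 CPM in NS samples, and rose (log2 fold change 0.40 ± 0.06 SE, adjusted p = 0.00475 by edgeR). In the annotation 2192 of 5539 exonic bases of Psme1 are shared with Emc9, and 743 of 3800 of Psmb9 with Tap1, which makes their counts less certain. Psmb8, the replacement for Psmb5, had 106, 96.5 and 112 CPM in 4LPS, against 74.6, 88.3 and 86.2 CPM in NS, and rose (log2 fold change 0.34 ± 0.08 SE, adjusted p = 0.0302 by edgeR). Psmb9 and Psmb10, which replace Psmb6 and Psmb7, had log2 fold changes of 0.18 and 0.07 and did not pass (adjusted p = 0.188 and 0.368 by edgeR). Psme1 passed under all 19 other settings tried, and Psmb8 under 12 of 19, with adjusted p up to 0.0966.

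How each interferon-inducible gene stood to its constitutive counterpart was measured within each sample as a ratio of FPKM. Psmb8 was 1.85, 1.73 and 1.99 times Psmb5 in 4LPS samples, against 1.33, 1.30 and 1.48 times in NS samples, a difference of 0.44 in mean log2 ratio (two-sided exact permutation p = 0.1, adjusted p = 0.15 over 3 ratios). Psmb9 over Psmb6 was 0.825, 0.925 and 0.872 in 4LPS, against 0.824, 0.63 and 0.794 in NS, a difference of 0.23 (exact permutation p = 0.1, adjusted 0.15), and the groups were apart by 4LPS replicate 1 over NS replicate 1 at the third decimal. Psmb10 over Psmb7 was 0.711, 0.785 and 0.805 in 4LPS, against 0.642, 0.636 and 0.727 in NS, a difference of 0.20 with overlapping groups (exact permutation p = 0.2, adjusted 0.2). With 3 samples per group the smallest p of this test is 0.1, so no ratio could pass. Leaving out each sample gave differences of 0.38 to 0.49, 0.11 to 0.30 and 0.16 to 0.26 for the 3 ratios in that order. Psme1 over Psme2, a ratio added after the values were seen, was 1.89, 1.78 and 1.62 in 4LPS, against 1.33, 1.47 and 1.47 in NS, a difference of 0.31. This ratio depends on how reads were shared between Psme2 and Psme2b.

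**Figure D4:**
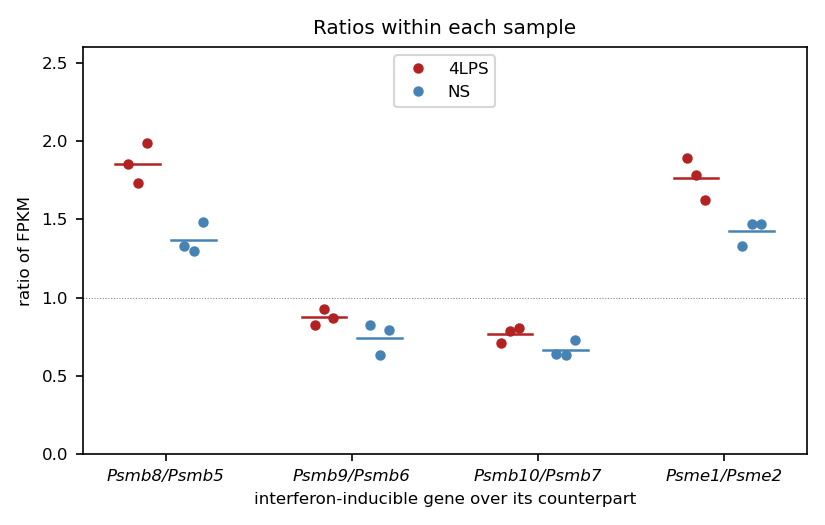
Ratio of FPKM within each sample (vertical axis) of an interferon-inducible gene over its constitutive counterpart or, for Psme1 over Psme2, over its partner chain (horizontal axis), with points for the 3 4LPS samples in red left of the 3 NS samples in blue, bars at the geometric mean and a dotted line at 1. Psmb8 over Psmb5 is 1.73 to 1.99 in 4LPS and 1.30 to 1.48 in NS, and only the Psmb10 over Psmb7 groups overlap.

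Genes that work beside the proteasome were counted from lists. Of 11 subunits or partners with other names, such as Adrm1 (a ubiquitin receptor), Sem1 (a small lid subunit) and Pomp (a core maturation factor), 0 passed, with a median log2 fold change of -0.09. Of 11 shuttles and genes of the complex of Vcp, the ATPase that extracts ubiquitinated proteins, 0 passed (median -0.07), and Vcp itself had 322, 346 and 345 CPM in 4LPS samples, against 368, 386 and 382 CPM in NS samples (log2 fold change -0.17, adjusted p = 0.052 by edgeR). Nfe2l1 and Nfe2l2 encode transcription factors known to drive proteasome genes when degradation fails or under oxidative stress. Nfe2l1 had 177, 164 and 171 CPM in 4LPS, against 186, 192 and 156 CPM in NS (log2 fold change -0.06, adjusted p = 0.61 by edgeR). Nfe2l2 had 233, 242 and 232 CPM in 4LPS, against 214, 202 and 221 CPM in NS, without overlap (log2 fold change 0.15, adjusted p = 0.0702 by edgeR). Of the 11 genes listed for transcription of the proteasome 1 rose, where 9.95% of all genes tested were called higher. This was Mafk, a small Maf partner of both factors, with 32.6, 33.5 and 36.1 CPM in 4LPS, against 28.8, 27.8 and 28.6 CPM in NS (log2 fold change 0.26, adjusted p = 0.0397 by edgeR). Mafk passed under 4 of 19 other settings.

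The COP9 signalosome shares its architecture with the lid and removes Nedd8 from ubiquitin ligases. Of its 10 genes 2 fell, where 6.43% of all genes tested were called lower, and 9 were below 0, against 52.7% of all genes. The median was -0.16. The gene above 0 was Cops9, higher in every 4LPS sample than in any NS sample (log2 fold change 0.33, adjusted p = 0.135 by edgeR). Cops4 had 59.4, 62.5 and 59.1 CPM in 4LPS samples, against 78.5, 73.5 and 82.2 CPM in NS samples (log2 fold change -0.37, adjusted p = 0.00598 by edgeR), and passed under all 19 other settings. Cops5, the catalytic subunit, had 34.4, 34.0 and 31.2 CPM in 4LPS, against 39.6, 39.6 and 39.1 CPM in NS (log2 fold change -0.25, adjusted p = 0.0373 by edgeR), and passed under 10 of 19, with adjusted p up to 0.131. Both drops were in genes with separate groups. Of the 8 genes of the CCT chaperonin, another ring complex, 2 rose, where 9.95% of all genes tested were called higher. These were Tcp1 (log2 fold change 0.26, adjusted p = 0.0154 by edgeR) and Cct2 (log2 fold change 0.23, adjusted p = 0.037 by edgeR), and the median over the 8 was 0.10. Under the 19 other settings Tcp1 passed in 14 and Cct2 in 11.

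The 4 calls among the members were sensitive to single libraries and to scaling. Leaving out each sample in turn gave 1 member lower without NS replicate 1 (Psmd1, 2.17%, against 2.78% of all genes), 3 without NS replicate 3 (Psmc3, Psmd3 and Psmd4, 6.52%, against 9.12%), and 0 without NS replicate 2 (against 4.14%) or without 4LPS replicate 1, 2 or 3 (against 4.16%, 2.71% and 3.25% in that order). The adjusted p of Psmb2 was then 0.0553 to 0.137, that of Psmd1 0.0397 to 0.123, that of Psmd3 0.0203 to 0.161 and that of Psmd4 0.0185 to 0.112, all by edgeR. Their log2 fold changes stayed below 0 in each of these fits. Without a composition factor 16 members were lower (34.8%, against 13% of all genes), and with log2(FPKM + 1) 18 were (39.1%, against 13%), while with log2(FPKM + 0.1) the background was 12.7% and without a filter on FPKM it was 8.09%, for 18 and 14 members. Smaller moves came from upper-quartile factors (5 members, 10.9%, against 7.73%), from no filter on counts (2, 4.35%, against 4.79%), and from a block on the replicate number (0, against 8.22%), which with a length correction left 1 (2.17%, against 8.47%). RLE factors, the length correction alone, at least 50 counts in 3 samples and limma-voom each gave 4, against 6.55%, 7.0%, 7.53% and 5.93% of all genes. Without the composition factor the median log2 fold change of all genes was -0.11, against -0.02 with TMM factors. Relative to the median of all genes, the median of the core and regulatory particle genes was -0.11 to -0.15 under every setting tried. Of these genes 32 were tested, or 31 with at least 50 counts in 3 samples. A log2 fold change below 0 was found for 27 to 31 of them, and one below the median of all genes for 26 to 31.

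**Figure D5:**
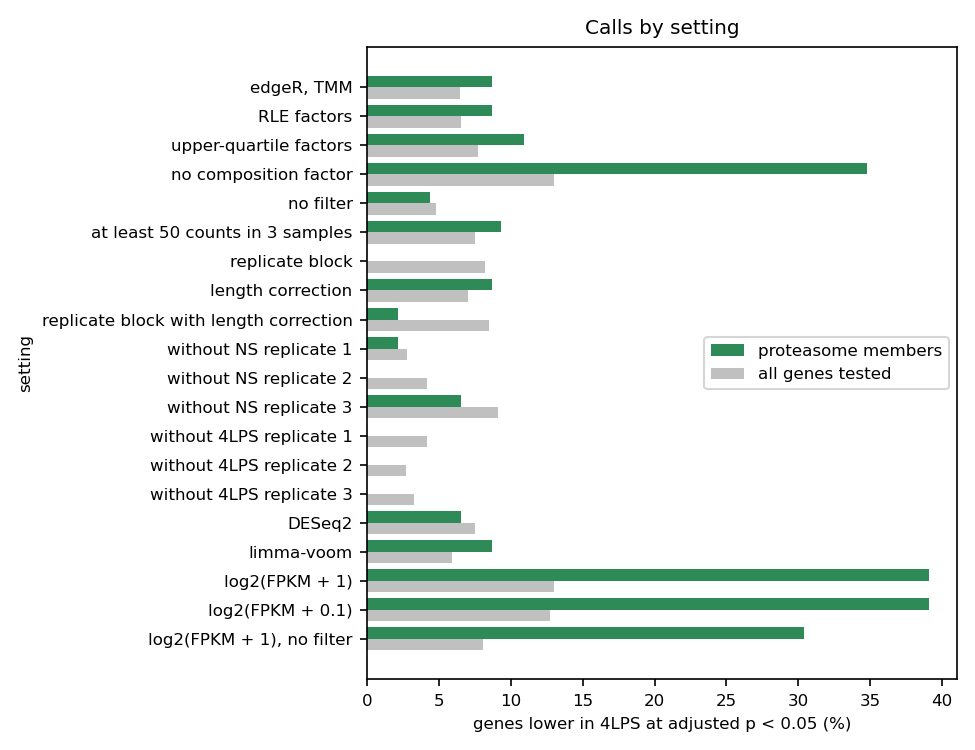
Percentage of genes lower in 4LPS at an adjusted p under 0.05 (horizontal axis, from 0) under each setting (rows), for the proteasome members in green and all genes tested in grey. The members are at 8.7% with edgeR and TMM factors, and at 0 with the replicate block and in 4 of the fits that leave out a sample. They are at 34.8% where no composition factor is used, and at 39.1% with log2(FPKM + 1) or log2(FPKM + 0.1). With log2(FPKM + 1) and no filter they are at 30.4%.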

How the data were processed

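The samples were 3 4LPS and 3 NS libraries of CD11b+ cells, which magnetic beads had retained from dissociated cortex. Mapping used HISAT2 2.0.4 and Bowtie2 2.2.5 with build mm39 according to the study's methods (the submitters' processing notes list mm39 together with mm10), and RSEM 1.2.8 gave the values. The notes also name DESeq2 1.16.1. For the annotation of genes, a version was not given in the sources used here. Expected counts were deposited, of which 2.77% were not whole, beside FPKM values scaled by the authors for gene length and library total. TPM values and a size-factor normalized signal, both deposited in the same table, served only to identify units, and the authors' group means were left aside. RSEM shares reads between genes of near-identical sequence.

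Expected counts were rounded and tested in R 4.3.3 with edgeR 4.0.16 (TMM factors, filterByExpr, quasi-likelihood F-test, Benjamini-Hochberg over 13151 genes, adjusted p under 0.05), without a replicate block. The standard error is the log2 fold change over the square root of F. Scripts were tested on simulated data. Ratios of FPKM were compared by exact permutation over samples. Alternatives were scaling by RLE or upper-quartile factors or by totals alone, no filter on low counts, a minimum of 50 counts in 3 samples, a correction for length, a replicate block, DESeq2 1.42.0, limma 3.58.1 (voom, and log2 of FPKM plus 1 or 0.1 with a filter at 1 FPKM), and leaving out each sample. Same-numbered samples deviated together in replicate 1 (r = 0.473) but not in replicates 2 and 3 (r = -0.262 and 0.0663). Samples of different number (4LPS replicate 2 and NS replicate 3) reached r = 0.468, so the numbers were not taken as pairs. Between samples of a group, the mean chi-square per gene was 5.92 to 24.4, above sampling noise, so no library was a repeat. The samples came from separate pools of mice, and p-values measure the spread between those pools.

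Members, gene lists and tests were chosen with earlier results of these data known. Values are printed for members that passed, the catalytic subunits, Psme2, Psme3, Psme4, Psmf1, the extremes of each role list and of FPKM, the interferon-inducible genes, Nfe2l1, Nfe2l2 and the listed genes that passed, some of which are not reported here. Those of Psma1, Psma3, Psmb3, Psmb4, Psmc3, Psmd14, Psma6, Psmg1, Psmg2, Psmd5, Psmd9, Psmd10 and Vcp, and the ratios between summed lists, were chosen after their values were seen. Positions are from GRCm39 with GENCODE annotation, matched by symbol for all 46 members. Promoters are from RefSeq on GRCm38.p6.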

Additional observations from a re-analysis of the deposited data

How the results depend on the processing

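The count of 4 members lower became 16 without a composition factor, 2 without a filter, 18 with log2(FPKM + 1) or log2(FPKM + 0.1), 14 with log2(FPKM + 1) without a filter, and 0 to 3 without each sample. No replicate block was used because same-numbered samples did not vary together in replicates 2 and 3. With the block 0 members were lower, and with the block and a length correction 1. Of the context lists, 7 genes were higher and 2 lower, where 9.95% and 6.43% of all genes tested were called. The higher count became 3 without a composition factor (against 6.89% of all genes) and in the 3 FPKM settings (against 4.96% to 7.18%). Without each sample it was 3 to 8, against 5.89% to 12.2%. The lower count became 11 without a composition factor (against 13% of all genes) and in the 3 FPKM settings (against 8.09% to 13%). It was 7 with upper-quartile factors (against 7.73%) and 1 with the replicate block (against 8.22%). Without each sample it was 1 (lowest 1, highest 1), against 2.71% to 9.12%. No list was tested as a set. The direction of 10 named log2 fold changes, none of them past the threshold, turned under at least 1 setting. Without a composition factor Psmd2 was -0.0857, Psme2 -0.0131, Psme3 -0.0645, Psme4 -0.0432 and Psmb10 -0.0275. With log2(FPKM + 1), filtered or not, Psmd2 was -0.0799, Psme3 -0.0581, Psme4 -0.0363 and Psmb10 -0.0204. With log2(FPKM + 0.1) they were -0.0812, -0.0597, -0.0383 and -0.0207 in that order, and with upper-quartile factors Psmd2 was -0.0174. Without each sample, Psmb6 ran from -0.1027 to 0.0269, Psmc5 from -0.1227 to 0.0010, Psmd2 from -0.0141 to 0.0679, Psmd8 from -0.0581 to 0.0223, Psme3 from -0.0087 to 0.0578, Psme3ip1 from -0.0613 to 0.0216, Psme4 from -0.0029 to 0.1701 and Psmf1 from -0.109 to 0.0398. The cause of these changes was not tested. Psmb2, Psmd1, Psmd3 and Psmd4 kept their direction under all 19 settings and passed in 9, 12, 11 and 13 of them. No sample was tested as an outlier, since groups of 3 are too small, and the standard errors of the 38 members with at least 20 CPM were 0.05 to 0.10 on the log2 scale.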
